A study of Drosophila melanogaster with 2 samples.

Results

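The ELAV family of Drosophila melanogaster consists here of 3 paralogous protein-coding genes, elav, fne and Rbp9, and they were chosen by name, out of 13968 protein-coding genes, with results of these data in view. A peak was counted at a gene when its summit lay inside the annotated gene or within 5 kb of it, which gave 7 of the 9250 peaks of the main set, 3 at elav, 2 at fne and 2 at Rbp9. The peaks come from chromatin immunoprecipitation sequencing of Rfx, a transcription factor known for switching on genes of ciliated sensory neurons. There was 1 group of 2 biological replicates, each of whole transgenic embryos aged 0 to 24 h in which Rfx was fused to eGFP, and the labels' description says that the fusion was precipitated with an antibody against GFP, while their antibody field reads Rfx. Whole embryos of this age span mix many stages and cell types, so strong binding in few cells and weak binding in many cannot be told apart. The tag is carried by the whole strain, no untagged embryos and no control library were analysed here, and a peak list holds no expression values against which the tissue could be checked.

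ELAV proteins bind uridine-rich stretches of RNA through their RNA recognition motifs and change how neuronal transcripts are spliced and where they are cleaved and polyadenylated. elav is expressed in nearly all postmitotic neurons of the fly and its protein is the standard marker of that cell type. fne, short for found in neurons, is also neuronal, and Rbp9 is known from neurons and from the female germ line. Most embryonic neurons bear no cilium.

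The paralogues differed in how strongly and where Rfx-eGFP was found. At elav, a pair of peaks flanked the upstream start of the gene and stood at percentile 97.3 or higher of the main-set peaks in both replicates. At fne, both peaks were of middling or low signal, and neither overlapped a peak of the thresholded set of replicate 2. At Rbp9, the stronger peak lay at the divergent promoters of the neighbours gammaTub23C and Rrp1, and the peak inside Rbp9 was among the weakest of the main set. The genes were chosen with these values known, so they are given as a description without a test.

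The DNA under peaks at these genes is given here for reference, and the sequences were not compared with one another. Each line holds 201 bases centred on a summit, 5′ to 3′ on the strand of the gene, from the reference genome of build dm6. Capitals mark matches to any of the 10 motifs named with the motif counts further on.
elav promoter peak, chrX:523373-523573, minus strand: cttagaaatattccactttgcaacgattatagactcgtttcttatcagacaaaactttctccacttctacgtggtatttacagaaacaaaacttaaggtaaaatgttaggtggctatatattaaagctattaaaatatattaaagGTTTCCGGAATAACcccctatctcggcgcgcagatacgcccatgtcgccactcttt
elav intron peak, chrX:522532-522732, minus strand: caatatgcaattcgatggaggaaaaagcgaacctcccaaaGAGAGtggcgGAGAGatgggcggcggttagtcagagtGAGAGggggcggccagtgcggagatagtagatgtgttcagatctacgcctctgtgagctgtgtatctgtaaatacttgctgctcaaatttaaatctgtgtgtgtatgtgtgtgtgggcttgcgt
fne deep intron peak, chrX:12925929-12926129, plus strand: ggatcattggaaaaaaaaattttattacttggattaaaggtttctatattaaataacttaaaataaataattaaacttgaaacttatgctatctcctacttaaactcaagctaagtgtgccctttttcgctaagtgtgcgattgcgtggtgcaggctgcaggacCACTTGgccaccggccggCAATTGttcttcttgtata
fne internal-promoter peak, chrX:12937951-12938151, plus strand: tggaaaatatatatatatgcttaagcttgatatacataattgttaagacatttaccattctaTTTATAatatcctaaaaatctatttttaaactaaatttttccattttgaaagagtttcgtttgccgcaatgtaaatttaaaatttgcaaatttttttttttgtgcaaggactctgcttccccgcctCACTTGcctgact
Rbp9 intron peak, chr2L:2957611-2957811, plus strand: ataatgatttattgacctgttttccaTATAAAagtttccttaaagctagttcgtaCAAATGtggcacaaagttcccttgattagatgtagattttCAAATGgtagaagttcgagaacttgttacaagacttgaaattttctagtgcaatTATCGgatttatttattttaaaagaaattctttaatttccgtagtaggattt
The elav lines are the strongest peaks of the family, and the other lines are the weaker peaks inside fne and Rbp9. The capitals mark a degenerate X-box at the elav promoter peak, against 19.2% of main-set summits, and GAGAG at the elav intron peak, against 24.9%. In the fne and Rbp9 lines they mark CANNTG, with TATAAA at the internal fne promoter, and TATAAA and CGATA in the Rbp9 line, on either strand. A weaker elav peak, farther upstream and at main-set percentile 41.6, and the peak at the promoters of gammaTub23C and Rrp1 are not shown.

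The elav gene (FBgn0260400) runs on the minus strand of X from 509235 to 523226, with 4 transcripts from 2 starts. It lies on the strand opposite to arg, the arginase gene, whose annotated span covers all of elav but its 3′ tip. The upstream start at 523226 is shared with a non-coding RNA gene, lncRNA:enrr, so a peak there cannot be given to elav alone. The promoter peak spans 523295 to 523644, with its summit 247 bp upstream of that start. Its signal, the enrichment value of the authors' peak caller, was 1418 in the main set, rank 86 and percentile 99.1. In the replicates' own ranked lists the signal at this summit was 842 in replicate 1 and 582 in replicate 2. The series-level lists gave this peak the same signal, while each replicate's lists have signals of their own, so the replicates were compared by percentile among the main-set peaks that had a value in that replicate. The promoter peak stood at percentile 98.9 in replicate 1 and 99.1 in replicate 2, a mean of 99.0 ± 0.0803 (SD, n = 2).

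The intron peak of elav spans 522499 to 522771, with its summit 594 bp downstream of the same start, inside an intron. The summit also lay within the spans of arg and lncRNA:enrr, so this peak cannot be given to elav alone either. It had a main-set signal of 993, rank 180 and percentile 98.1. The replicates gave signals of 538 and 452, at percentiles 97.3 and 98.4, or 97.9 ± 0.774 (SD, n = 2). The percentiles of the promoter and intron peaks did not overlap between the replicates, so the promoter peak was the higher of the pair in each. A further peak, from 524395 to 524738, had its summit 1341 bp upstream of the start, inside an intron of arg. This upstream peak was weaker, with a main-set signal of 104 at percentile 41.6. Its signals of 47.6 in replicate 1 and 56.8 in replicate 2 corresponded to percentiles 31.7 and 45.9, or 38.8 ± 9.99 (SD, n = 2). All 3 elav peaks were also in the conservative set, which held 70.8% of main-set peaks, and overlapped peaks of both replicates' thresholded sets, as 49.6% of main-set peaks did.

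Replicate 2 listed a peak in the middle of elav that replicate 1 did not. It spans 515752 to 516075, with its summit in an annotated 3′ untranslated region of elav, and also within the spans of arg and lncRNA:enrr. The summit lay 7312 bp from the 5′ end of elav. Its signal of 99.9 put it at percentile 68.4 of the replicate 2 thresholded set, with the highest score, 1000. No peak of replicate 1, of either series-level ranked list or of the main set had a summit there. Across the whole elav window, replicate 2 ranked 23 peaks and replicate 1 ranked 5, whereas the numbers were 19 and 11 at fne and 21 and 16 at Rbp9. Ranked lists reach down to low scores, and held 86234 peaks in replicate 2 and 81130 in replicate 1. The downstream elav start at 520285, used by 1 transcript, had no main-set summit within 500 bp. Replicate 2 ranked a peak there with a signal of 33.6, at percentile 87.2 of its ranked list, and replicate 1 ranked none.

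**Figure D1:**
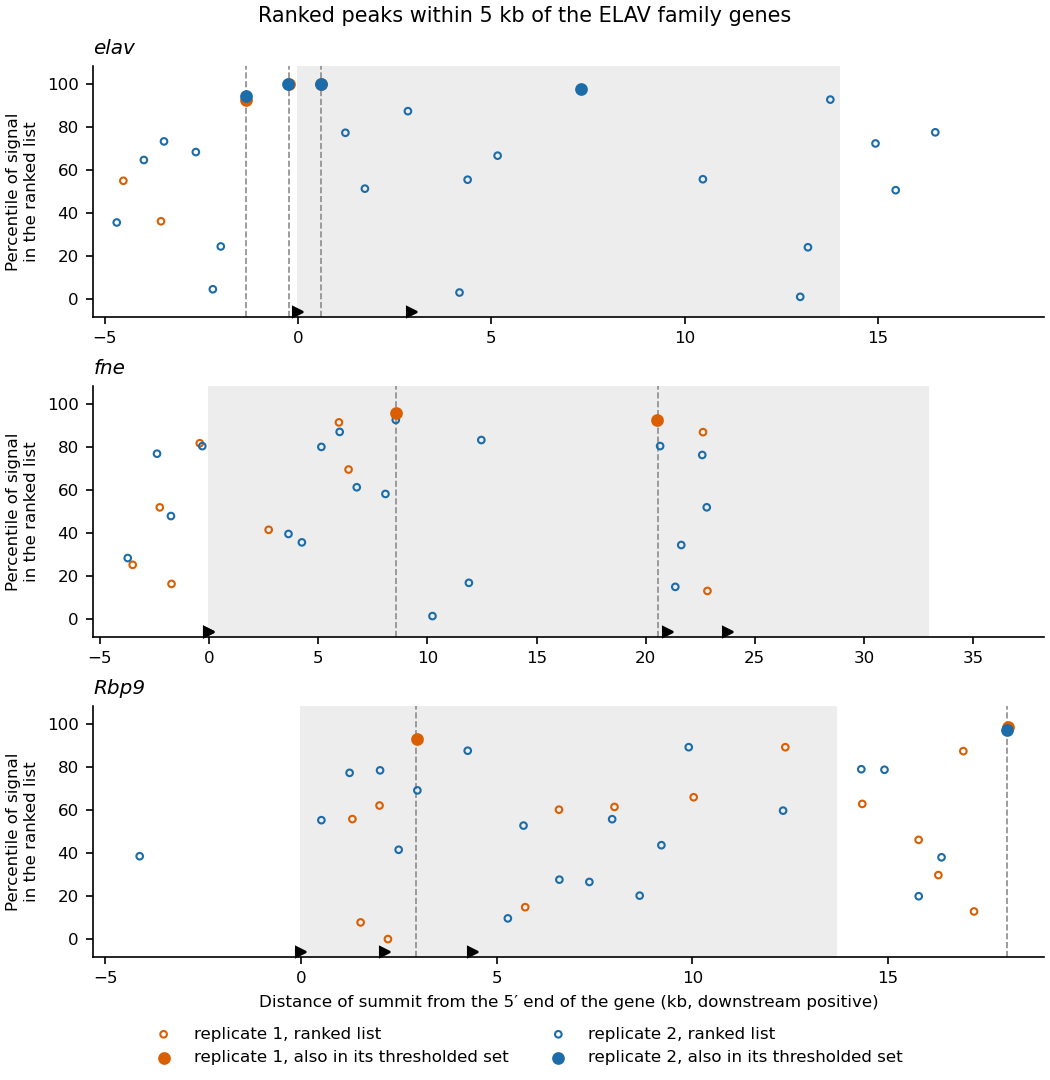
Ranked peaks of each replicate within 5 kb of elav, fne and Rbp9, by distance of the summit from the 5′ end of the gene in kb (x) and percentile of the signal in that replicate's ranked list (y). Filled points also passed into that replicate's thresholded set, grey spans are the genes, arrowheads are annotated starts and dashed lines are main-set summits. At elav the filled points of both replicates coincide around the upstream start, with replicate 2 drawn over replicate 1, while at fne only replicate 1 has filled points.

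The fne gene (FBgn0086675) runs on the plus strand of X from 12917477 to 12950417, the longest of the family at 32941 bp, with 11 transcripts from 4 starts. Its stronger peak spans 12925857 to 12926200, deep in an intron and 8545 bp downstream of the nearest start, which is that of fne. The main-set signal was 139, at percentile 57.1. Replicate 1 gave 86.2 and replicate 2 gave 47.9, at percentiles 59.0 and 33.9, or 46.5 ± 17.8 (SD, n = 2). In replicate 1 the peak had a score of 1000 and in replicate 2 a score of 572, below the lowest score of any thresholded set, 830, which corresponds to an irreproducible discovery rate (IDR) of 0.0100. The IDR is low for peaks that rank both high and alike in the sets compared.

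The weaker fne peak spans 12937879 to 12938222, with its summit 466 bp upstream of the start at 12938517, which 5 of the fne transcripts use. It was a weak peak, with a main-set signal of 73.1 at percentile 16.7. Signals of 49.5 in replicate 1 and 26.3 in replicate 2 stood at percentiles 33.8 and 5.24, or 19.5 ± 20.2 (SD, n = 2). The replicates placed this summit 129 bp apart, at 12938012 and 12938141, so that it lay 505 bp from the start in replicate 1 and 376 bp in replicate 2. It was not in the conservative set. The conservative set instead held a peak that the main set left out, with its summit at 12923446, also in an intron of fne. This peak had a signal of 81.2 and a score of 832 in the conservative set, and a score of 793 in the larger series-level ranked list, just under 830. The upstream fne starts, 7 bp apart, had only ranked peaks, with signals of 27.4 in replicate 1 and 26.2 in replicate 2, at percentiles 81.6 and 80.3 of the ranked lists. The start at 12941272 had no ranked peak within 500 bp in either replicate.

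The Rbp9 gene (FBgn0010263) runs on the plus strand of 2L from 2954762 to 2968434, with 9 transcripts from 3 starts. The peak inside it spans 2957539 to 2957882, in an intron 800 bp downstream of the start at 2956911. Its main-set signal of 69.6 put it at percentile 12.9, the lowest of the 7 peaks. Signals of 50.8 in replicate 1 and 20.4 in replicate 2 stood at percentiles 35.1 and 2.70, or 18.9 ± 22.9 (SD, n = 2). The replicate 2 score at this place was 136, against 1000 in replicate 1, and the peak was not in the conservative set.

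The stronger peak of the Rbp9 window, from 2972735 to 2972926, had its summit downstream of Rbp9, 18035 bp from the 5′ end of the gene. Its nearest start, 94 bp away, was that of gammaTub23C, a gamma-tubulin gene of the centrosome. The start of Rrp1, a DNA repair gene on the opposite strand, was 289 bp away. The main-set signal was 288, at percentile 82.8, and the replicates gave 186 and 89.6, at percentiles 83.4 and 71.4, or 77.4 ± 8.42 (SD, n = 2). When only peaks nearest to a start of the gene itself were counted, Rbp9 kept 1 peak and its strongest percentile fell to 12.9. No main-set summit lay within 500 bp of any of the 3 Rbp9 starts. At the middle start the strongest ranked signal was 19.5 in replicate 1 and 24.9 in replicate 2. At the downstream start replicate 2 alone ranked a peak, at 34.0, and neither replicate ranked one at the upstream start.

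**Figure D2:**
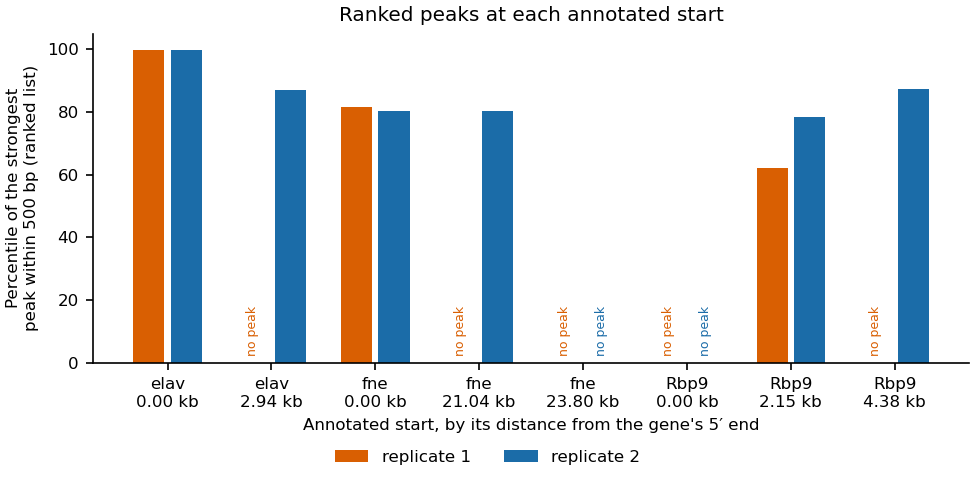
Percentile, in each replicate's ranked list, of the strongest peak with a summit within 500 bp of each annotated start (y), by gene and distance of the start from the 5′ end of the gene (x). The fne starts 7 bp apart share a position, and bars are single values. The upstream elav start reaches percentile 99.9 in both replicates, every other start stays at 87.4 or below or has no peak, and at the fne start at 12938517 the replicate 1 summit falls 505 bp away, just outside the window.

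Ordered by the mean percentile over the replicates, the peaks ran from the elav promoter and the elav intron to the gammaTub23C promoter, the fne deep intron, the elav upstream peak, the internal fne promoter and the Rbp9 intron. The 2 replicate values of each of the upper 3 peaks did not overlap those of its neighbours in this order. Those of the fne deep intron (33.9 to 59.0) and the elav upstream peak (31.7 to 45.9) overlapped. So did those of the elav upstream peak, the internal fne promoter (5.24 to 33.8) and the Rbp9 intron (2.70 to 35.1). The peaks were sorted by these same values, with 2 per peak. Gaps and overlaps are therefore a description and not a test of the order. The 4 peaks at fne and in the Rbp9 window were all higher in percentile in replicate 1, by 11.9 to 32.4 points. The 3 elav peaks were all higher in replicate 2. Their differences, replicate 1 minus replicate 2, were -0.114 points at the promoter, -1.09 at the intron and -14.1 at the upstream peak. The share of all main-set peaks higher in each replicate was not counted, so these directions are not read as a trait of the genes. All 7 had a value in both replicates, as 88.8% of main-set peaks did. For scale, the median absolute difference over all main-set peaks with both values was 11.8 points and the 90th percentile was 39.9. All 7 peaks overlapped a peak of the replicate 1 thresholded set, as 65% of main-set peaks did. Of the 7, 4 overlapped a peak of the replicate 2 set, against 67.8% of the main set, and those left out were both fne peaks and the Rbp9 intron peak.

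**Figure D3:**
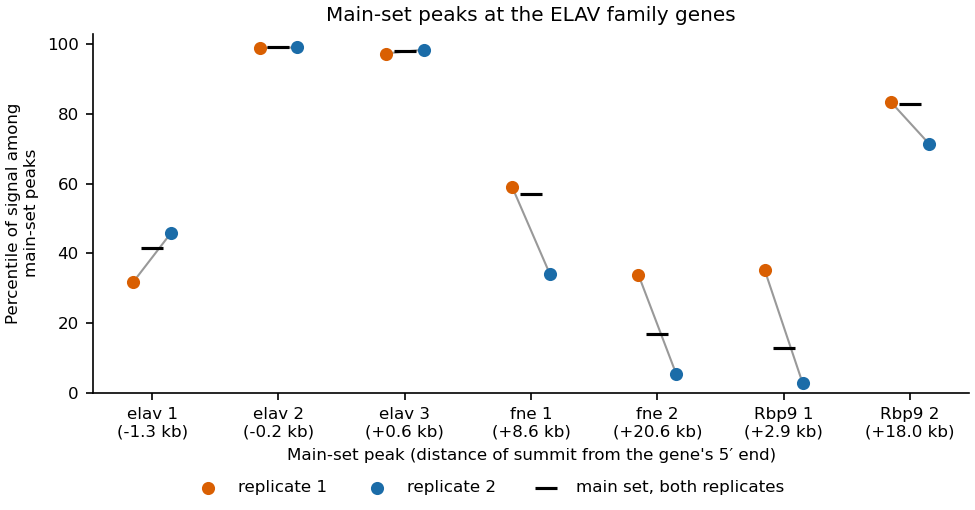
Percentile of the signal among main-set peaks (y) for the 7 peaks, numbered along each gene from its 5′ side (x), with points for the replicates and a dash for the main set. The 2 strong elav peaks lie at or above percentile 97.3 in both replicates, whereas the Rbp9 intron peak lies at 35.1 in replicate 1 and 2.70 in replicate 2.

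A summit inside or within 5 kb was found at all 3 genes and at 68.6% of protein-coding genes, a share that the choice of the genes makes uninformative about the family. Of all protein-coding genes, 45% had 2 or more such summits, as fne and Rbp9 did, and 26.4% had 3 or more, as elav did. Per 10 kb of window, elav had 1.25 summits, fne 0.466 and Rbp9 0.845, against 0.672 over the 7 chromosome arms. The last value covers the full length of the arms, Y and stretches outside gene windows included, so it is an unlike measure. The strongest peak stood at percentile 99.1 for elav, 57.1 for fne and 82.8 for Rbp9, against a median of 76.5 over protein-coding genes with a summit in the window. At 13992, 32941 and 13673 bp, elav, fne and Rbp9 are longer than the median protein-coding gene, at 2164.5 bp. The part of length in these counts and percentiles was not tested. A summit within 500 bp of a start of the gene itself was found at elav and fne, and at 35.4% of all protein-coding genes. Of the family, only elav had one in the conservative set and in the set of each replicate, against 29.9% of genes in the conservative set, 28.2% in replicate 1 and 29.6% in replicate 2. A summit within 5 kb was found at all 3 genes in the conservative set, against 61.5% of genes, and in the replicate 1 set, against 59.9%. In the replicate 2 set it was found at elav and Rbp9, against 61.6%. Of the 7 main-set summits, 3 lay within 500 bp of a start of any gene, against 50.4% of all main-set summits. The next main-set summits outside the 5 kb windows were 9472 bp downstream of elav, near the start of svr, 7466 bp upstream of fne, near that of CG4645, and 8612 bp downstream of Rbp9, near that of CG3165. On the other side they were 76677, 73582 and 10120 bp away.

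**Figure D4:**
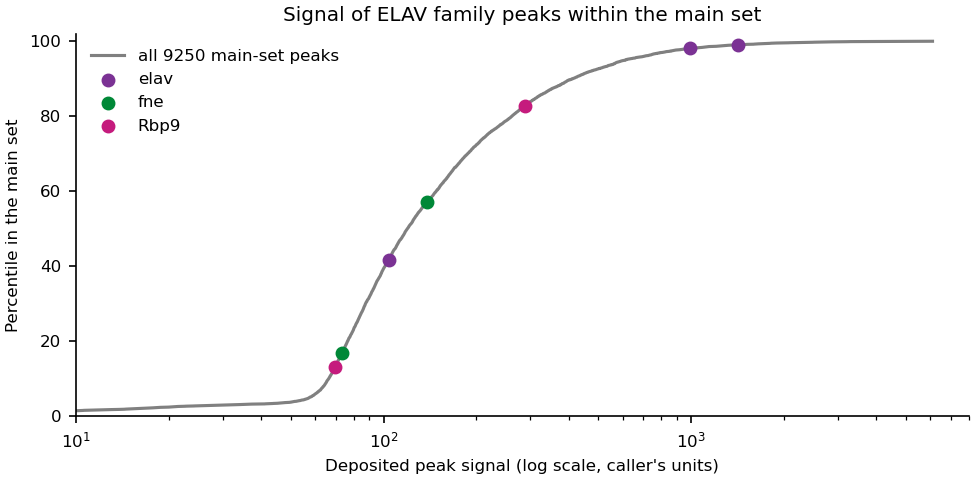
Deposited signal of the 7 peaks (x, log scale) against percentile in the main set (y), on the curve of all 9250 peaks. The elav promoter and intron peaks, at 1418 and 993, stand at the top of the curve, and the weakest fne and Rbp9 peaks, at 73.1 and 69.6, near its foot.

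In shape, 4 of the 7 peaks were 344 bp wide, the width that 70.6% of main-set peaks share. The exceptions were the stronger peaks, with 350 bp for the elav promoter, 273 bp for the elav intron and 192 bp for the gammaTub23C promoter. Main-set peaks of 344 bp had a median signal of 94.6 and narrower peaks one of 310. Replicates placed the summit 0 to 18 bp apart at 6 of the peaks, and 129 bp apart at the internal fne promoter, against a median of 19 bp and a 90th percentile of 79 bp over the main set. The share of G and C in the 201 bp at the summit ran from 27.9% at the internal fne promoter to 49.8% at the elav intron, with 36.8% at the elav promoter. The median of the main set was 38.8%, and its 5th and 95th percentiles were 27.9% and 55.7%.

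No full X-box, the palindromic site that RFX proteins bind, was found within 100 bp of any of the 7 summits in its strict form, which 0.757% of main-set summits held. Its arm GGCAAC was at none of them, against 13.2% of main-set summits. A match to the degenerate X-box was found at the elav promoter peak, with its centre 51.5 bp from the summit on the side toward the start, and at none of the other peaks, against 19.2% of main-set summits. That match is in capitals in the sequence above. GAGAG, the site of GAGA factor, occurred 3 times at the elav intron peak, all on the side toward the start, and at none of the other summits, against 24.9% of the main set. The core of the DREF site, TATCGA, was at none against 16.2%, and the BEAF-32 site CGATA, which lies inside the reverse complement of TATCGA, was at the elav upstream peak and the Rbp9 intron peak, against 31% of the main set.

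The E-box CANNTG, bound by proneural factors among others, was found at both fne peaks and both peaks of the Rbp9 window, and at no elav peak, against 62.4% of main-set summits. Its form CAGCTG was at none of the 7, against 11%, and the Zelda site CAGGTAG was at none, against 1.04%. The TATA box TATAAA was at the elav upstream peak, the internal fne promoter and both peaks of the Rbp9 window, against 28%. Matches were placed by their distance from a summit, not from a start, and the internal fne promoter summit lay 466 bp upstream of its start. All motifs were searched on both strands without mismatch, and a missing match says only that these letters are not in the window. With 7 windows, shares of the family were not compared with those of the main set.

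Genes with the most similar strength were found among those with the same number of main-set summits, by the distance between the replicate percentiles of their strongest peak. Of 1580 such genes for elav, the nearest was arg, which shares the promoter peak of elav and so has a distance of 0. It was followed by bam and RpS27 at 0.132, which share a signal of 1496. For fne the nearest of 2446 genes were r (0.842), CG12206 (1.79) and Fs (1.99). For Rbp9, whose strongest peak is that of gammaTub23C, they were Drp1 and Arpc5 (0.490 each) and CG12910 (0.538). These likenesses rest on 2 replicates and on percentile alone.

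Genes of 4 lists were described by whether a main-set summit lay within 500 bp of a start. Whether the genes listed as neuronal are so in these embryos was not checked. Of 10 genes whose RNAs ELAV proteins are known to act on, 7 had such a summit, the strongest at AGO1, the microRNA effector (signal 392), nej, a histone acetyltransferase (181), and pum, a translational repressor (144). The genes arm, ewg and mei-P26 had none. Of 19 matched genes listed as neuronal RNA-binding proteins, 16 had a summit at a start. The strongest were at msi, which encodes Musashi (1220), Sxl, the sex-determining splicing regulator (342), and orb2, a CPEB protein of neurons (294). Syp, bru1 and bru3 had none. The msi peak, at percentile 98.7, was close in strength to the elav promoter peak.

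Of 15 genes for cleavage and polyadenylation of pre-mRNA, the step that ELAV proteins modulate, 10 had a summit at a start. The strongest were at Cpsf5 (370), CstF64 (351) and Clp (310), and CstF50, Fip1 and Pabp2 were among those with none. Of 14 genes listed as pan-neuronal, 3 had a summit at a start. These were sbb (646), scrt, which encodes a zinc-finger factor of neurons (91.0), and cpx, the complexin gene (62.5). Appl, brp and futsch were among the 11 without one. The shares were 70.0% for the RNA targets, 84.2% for the RNA-binding proteins, 66.7% for the polyadenylation factors and 21.4% for the pan-neuronal genes, against 35.4% of all protein-coding genes. With a summit anywhere inside the gene or within 5 kb, as counted for the family, 9 of the 10 RNA targets had one, as did 94.7% of the RNA-binding proteins, 86.7% of the polyadenylation factors and 64.3% of the pan-neuronal genes, against 68.6% of all protein-coding genes. The pan-neuronal list was thus below the share of all genes at starts and near it by the wider rule, under which brp, without a summit at a start, had 5. The genes of these lists also differ in length and in the number of annotated starts, whose part in the shares was not tested. Median lengths were 23840, 53998, 2944 and 32727 bp for the lists in this order, against 2164.5 bp for all protein-coding genes, and the median numbers of distinct starts were 3, 4, 1 and 2, against 1. The median percentile of the strongest peak at a start, in genes with one, was 54.3, 57.6, 71.3 and 32.6 for the lists, against 66.2 for all such genes. The genes brat and pum stand in both of the first lists.

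**Figure D5:**
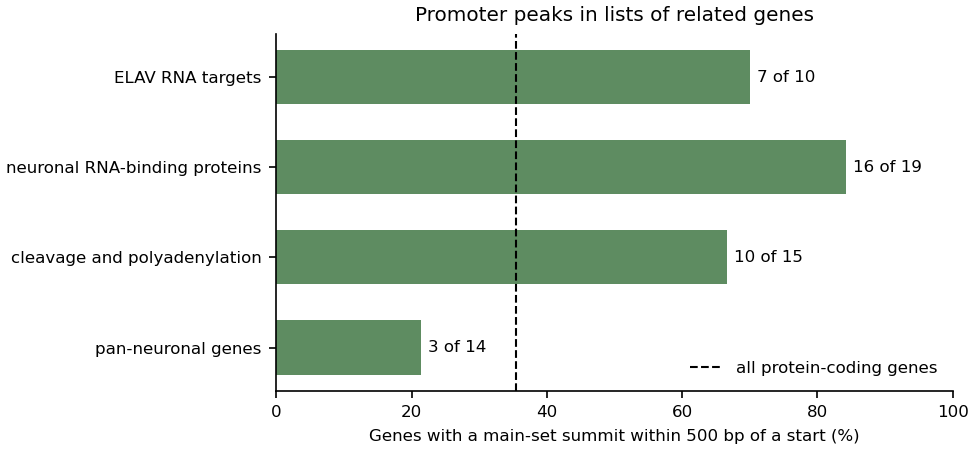
Share of genes with a main-set summit within 500 bp of a start (x, percent) in 4 lists of genes (y), with counts beside the bars and the share of all protein-coding genes, 35.4%, as a dashed line. The lists of RNA targets, RNA-binding proteins and polyadenylation factors lie above the line and the pan-neuronal list lies below it.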

How the data were processed

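The deposited files are peak lists on build dm6, per the labels, from 2 biological replicates whose sonicated chromatin has a labelled size range of 200 to 800. The authors' deposited signal is the peak caller's enrichment value on an unstated scale, and the deposited score restates the IDR as a whole number of at most 1000. Neither aligner nor peak caller is named, with or without a version, in the sources used here. The files hold no read counts, so depth is unknown and no interval is given. The main set is the larger series-level thresholded set, and the conservative set is the smaller; 16 columns of the series-level ranked lists were not used.

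Summits were placed on the Ensembl release 115 annotation (BDGP 6.54) of the same build, leaving out transposable elements. For a replicate's value at a main-set peak, its ranked peaks that contain the summit were taken and the strongest was used. Main-set peaks with a value numbered 8506 in replicate 1 and 8893 in replicate 2. Motif shares are over the 9247 summits on the arms. The strict X-box is a pair of 6-base arms with a spacer of 0 to 3 bases, and the degenerate form has looser arms and a spacer of 1 to 3. Tables were joined with pandas 2.3.3 under Python 3.11.15 and plotted with matplotlib 3.10.9, and the assignment was tested on simulated data.

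The genes, lists and motifs were chosen with earlier results of these data known, and no test was run. From each list the text names the 3 genes with the strongest peak at a start, then the alphabetically leading 3 that lack one. Of the listed names, 1 of 20 RNA-binding protein names (nos) matched no protein-coding symbol used here and was left out. A planned comparison of the 3 proteins was not made, because no protein table was used here.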

Additional observations from a re-analysis of the deposited data

How the results depend on the processing

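The 22 results were recomputed under 84 alternative values, of which 62 stayed within the replicate spread or within 1.5 times the count. No paired analysis was possible because there is 1 group and no test. For the strongest peak, elav stood at percentile 98.8 in the conservative set and at 98.6 to 98.8 with either replicate's own set alone. The Rbp9 percentile ran from 62.9 to 77.5 with either replicate alone, and was 12.9 both with a 2 kb window and when only nearest starts counted. With either replicate alone, summits numbered 3 to 4 at elav, 0 to 2 at fne and 1 to 2 at Rbp9. The fne value of 0 came from replicate 2 alone, which therefore gave no fne percentile. A 10 kb window gave fne 4 summits, and Rbp9 had 1 in the conservative set, the gammaTub23C promoter peak, and 1 with a 2 kb window and by nearest start, the Rbp9 intron peak. A window of 1000 bp around starts took in 5 of the 7 summits in place of 3. With either replicate alone, counts of listed genes with a peak at a start ran from 10 to 15 for the RNA-binding protein genes. They ran from 5 to 8 for the RNA targets, 8 to 10 for the polyadenylation factors and 1 to 2 for the pan-neuronal genes. The conservative set gave 1 of the pan-neuronal genes. The share of all protein-coding genes was also lower than the 35.4% of the main set, at 28.2% in replicate 1, 29.6% in replicate 2 and 29.9% in the conservative set. With a motif window of 50 bp, the degenerate X-box was at 0 summits, CGATA at 1 and the E-box at 1. With 150 bp, the degenerate X-box was at 2, its arm at 1 and GAGAG at 4. An overlap of 50% of the shorter peak left 4 peaks shared by both replicates, as 1 bp did.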
